A study of Mus musculus with 4 samples.

Results

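Yap1, Wwtr1, Tead1, Tead4, Ccn1, Ccn2, Ccn5, Ankrd1, Amotl2 and Lats2 are transcription factors, cofactors and target genes of the Hippo-YAP pathway. They were taken from the deposited gene table by their symbols, and all 10 were found among its 55401 genes. RNA was sequenced from 2 libraries of WT E14 mouse embryonic stem cells (mESCs) and 2 libraries of Haspin-KO E14 mESCs, in which CRISPR/Cas9 with a pair of guide RNAs was used to disrupt Haspin, the kinase that phosphorylates histone H3 on threonine 3. Both groups received no special treatment and were grown in serum medium with LIF and 2i, the inhibitors of MEK and GSK3. Haspin-KO cells were single clones picked for lack of the H3T3ph stain, and the labels do not say from which Haspin-KO line, or from which culture, each library came, so that p-values measure only the spread between these libraries. The study's methods state that the mESCs were passaged on mitomycin C-treated mouse embryonic fibroblasts or kept on gelatin for assays.

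The Hippo pathway is a kinase cascade in which MST kinases (Stk3 and Stk4), with the adaptor Sav1, activate LATS kinases, which phosphorylate the coactivators YAP (Yap1) and TAZ (Wwtr1) and keep them in the cytoplasm. Unphosphorylated YAP and TAZ enter the nucleus, bind TEAD transcription factors and switch on genes such as Ccn1, Ccn2 and Ankrd1, and some targets, including Amotl2 and Lats2, feed back to restrain YAP. In the early mouse embryo YAP and TEAD4 drive the trophectoderm programme in outer cells. Transcript levels do not report the phosphorylation or the location of YAP and TAZ.

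Counts summed to between 14207828 and 21834847 reads per library, with a WT mean 1.37 times as large as the Haspin-KO mean. Haspin, the targeted gene, had 39.99 and 35.65 CPM (read counts scaled to the TMM-normalized library size) in WT and 10.36 and 14.61 CPM in Haspin-KO, with a log2 fold change of -1.60 (SE 0.16, edgeR adjusted p = 0.00154). Markers of mESCs were present in every library, with 10 of 10 tested and 0 passing the test (3 lower and 0 higher at an unadjusted p under 0.05, and 1 lower with DESeq2). Their summed level was 5752 and 5976 CPM in WT and 5271 and 5490 CPM in Haspin-KO. The 4 most abundant per length were Dppa5a, Pou5f1, Nanog and Zfp42, and the pluripotency factor Pou5f1 had 1071 and 1027 CPM in WT against 931.9 and 975.2 CPM in Haspin-KO.

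TEAD factors bind the sequence GGAATG, so the 250 bases before the transcription start of the Hippo-YAP genes were searched for it on both strands. RefSeq promoter windows (GRCm38.p6) were matched for 6 of the 10 genes, with 8 windows in all since Wwtr1 and Lats2 have more than 1 listed start. Tead1, Tead4, Ccn2 and Ccn5 had no entry. GGAATG or its reverse complement CATTCC was found in 5 of these 6 genes, namely Yap1, Wwtr1, Ccn1, Ankrd1 and Amotl2, and in 12.6% of all 32851 windows of this length. The motif TGANTCA of the AP-1 factors, which often act together with YAP and TEAD, was found in 0 of the 6 genes and in 6.75% of all windows. A match is a description of the letters and not a site shown to be bound. The window of Ccn1, a classical YAP/TAZ target, is shown whole (chr3:145649986-145650235, minus strand), with the match that starts 103 bases before the start site in capitals:
Ccn1: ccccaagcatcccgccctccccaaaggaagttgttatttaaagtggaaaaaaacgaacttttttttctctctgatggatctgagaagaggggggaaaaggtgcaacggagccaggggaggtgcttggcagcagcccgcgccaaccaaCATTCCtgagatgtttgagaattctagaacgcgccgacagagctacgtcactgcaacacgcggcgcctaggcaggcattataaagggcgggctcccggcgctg

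The other matches are shown as 30 bases each, with the motif in capitals, so that the letters around it can be compared between the genes. They lie 141 bases before the start site in Yap1 (chr9:8004720-8004749, minus strand), 136 bases before the first listed start in Wwtr1 (chr3:57576029-57576058, minus strand), 210 and 123 bases before it in Ankrd1 (chr19:36120037-36120066 and chr19:36119950-36119979, minus strand) and 65 bases before it in Amotl2 (chr9:102717727-102717756, plus strand). These are RefSeq starts. In the GENCODE annotation some transcripts of Ankrd1 and Amotl2 start further upstream, so that all 250 bases of the Ankrd1 window and 136 bases of the Amotl2 window lie in annotated untranslated exon sequence:
Yap1: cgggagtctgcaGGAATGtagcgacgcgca
Wwtr1: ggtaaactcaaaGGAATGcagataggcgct
Ankrd1, first match: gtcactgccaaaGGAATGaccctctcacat
Ankrd1, second match: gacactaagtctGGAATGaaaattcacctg
Amotl2: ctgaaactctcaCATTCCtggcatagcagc

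Comparison of Haspin-KO with WT asked whether these genes differ in transcript level once Haspin is disrupted. The 10 Hippo-YAP genes all passed the filter on low counts, Ccn5 through its WT libraries alone. At an adjusted p under 0.05 in edgeR, 1 of the 10 was lower in Haspin-KO (Ccn5) and 0 were higher. DESeq2 called 0 lower and 0 higher, and gave Ccn5 no adjusted p. Of the 15580 genes tested in edgeR, 1.51% were lower and 0.988% were higher. The 9 genes that did not pass the test had log2 fold changes between -0.61 (Ankrd1) and 0.46 (Lats2). The median log2 fold change of the 10 genes was 0.04, and that of all genes tested was -0.0039. At an unadjusted p under 0.05 there were 1 lower gene and 3 higher genes (Tead1, Ccn1 and Amotl2). Both Haspin-KO libraries lay below both WT libraries for 3 genes (Ccn2, Ccn5 and Ankrd1), a pattern shown by 26.9% of all genes tested, and above them for 5 genes (Yap1, Tead1, Ccn1, Amotl2 and Lats2), a pattern shown by 25.3%. The libraries of the groups overlapped for Wwtr1 and Tead4.

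**Figure D1:**
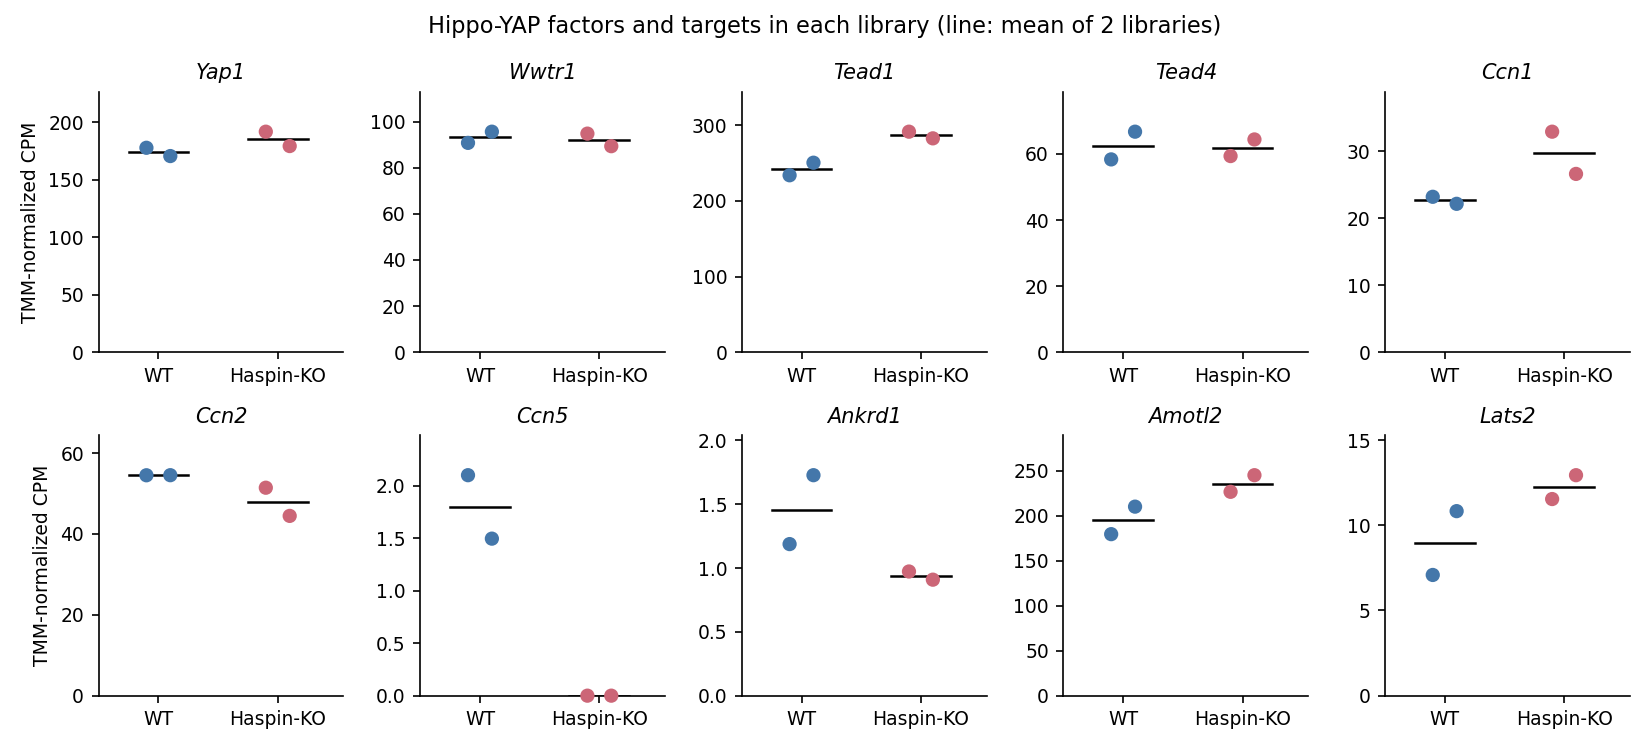
TMM-normalized CPM (linear axis from 0, a separate scale for each gene) of the 10 Hippo-YAP genes in each of the 2 WT libraries (blue) and 2 Haspin-KO libraries (red), with replicate 1 on the left in each group and lines at the group means. Ccn5 was at 0 in both Haspin-KO libraries, whereas the groups overlapped for Wwtr1 and Tead4.

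The coactivators were at similar levels in all libraries. Yap1 (chr9:7931999-8004596), which encodes YAP, had 177.8 and 170.6 CPM in WT and 191.8 and 179.3 CPM in Haspin-KO. Its Haspin-KO libraries lay above both WT libraries by less than the spread within either group for the closest pair, and the fitted fold of Haspin-KO over WT was 1.06 with a 95% interval of 0.949 to 1.2 (adjusted p = 0.517). Wwtr1 (chr3:57455649-57575910), which encodes TAZ, had 90.81 and 95.66 CPM in WT and 94.82 and 89.37 CPM in Haspin-KO. These values interleave, with a fold of 0.988 (95% interval 0.871 to 1.12, adjusted p = 0.932), and its small log2 fold change turned positive without WT replicate 2 (0.02) or Haspin-KO replicate 2 (0.02).

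Among the DNA-binding partners, Tead1 (chr7:112679318-112906807) had 233.8 and 250.4 CPM in WT and 291.4 and 282.6 CPM in Haspin-KO. Both Haspin-KO libraries were above both WT libraries, with a fold of 1.19 and a 95% interval of 1.06 to 1.32, but the adjusted p of 0.1004 missed the threshold. Tead4 (chr6:128224288-128300823), the TEAD of the trophectoderm, had 58.36 and 66.75 CPM in WT and 59.37 and 64.4 CPM in Haspin-KO. The Haspin-KO values of Tead4 fell between those of WT, with a fold of 0.99 (95% interval 0.851 to 1.15, adjusted p = 0.955), and the sign of its log2 fold change turned without WT replicate 2 (0.09) or Haspin-KO replicate 1 (0.05).

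**Figure D2:**
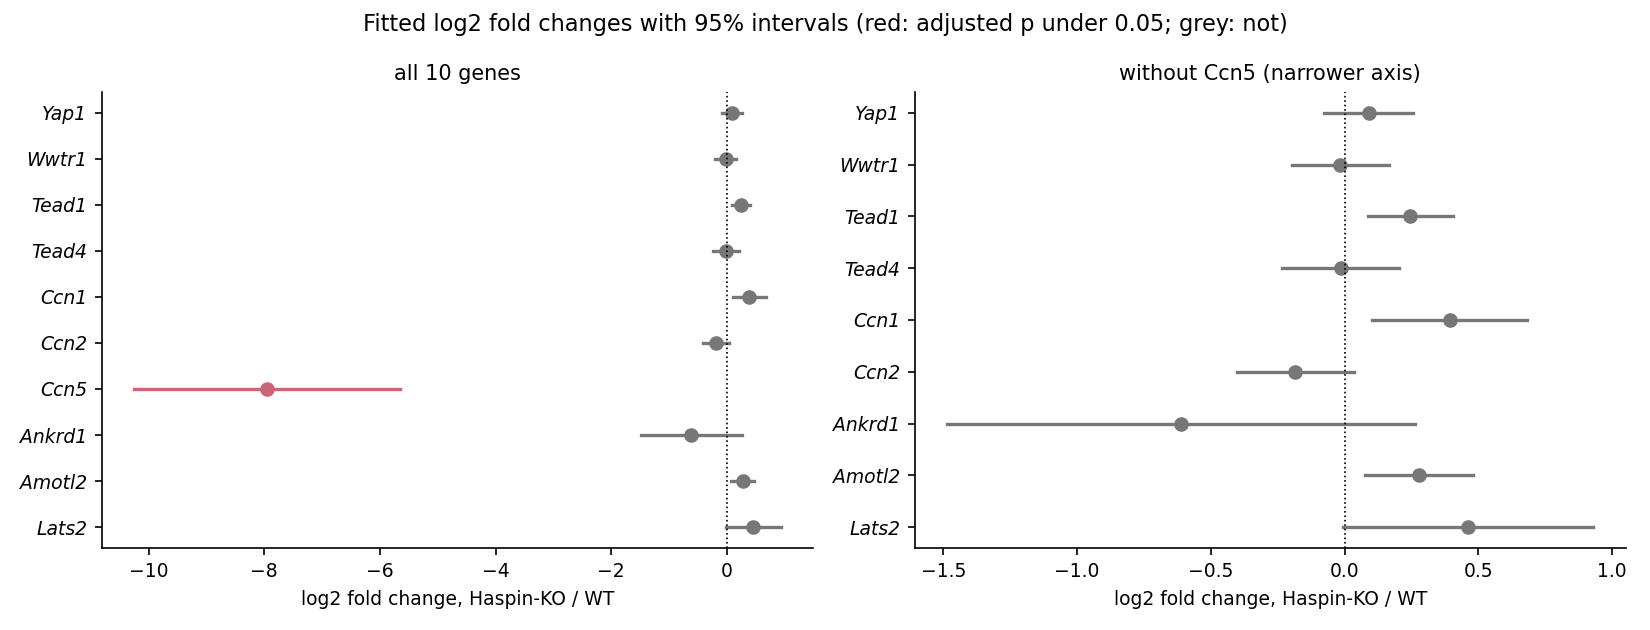
Fitted log2 fold change of Haspin-KO over WT (point) with its 95% interval (line) for all 10 Hippo-YAP genes (left) and for 9 of them on a narrower axis (right), where red marks an adjusted p under 0.05. Ccn5 stands apart near -7.95, a fitted value against 0 counts that is no bound, while the other points lie between -0.61 and 0.46.

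The CCN genes encode secreted matricellular proteins, which sit in the extracellular matrix and act on cells through integrins. Ccn1 (chr3:145646976-145649981), also known as Cyr61, had 23.22 and 22.17 CPM in WT and 32.95 and 26.64 CPM in Haspin-KO. Both Haspin-KO libraries were above both WT libraries, and the gap between the Haspin-KO libraries exceeded that between the WT libraries. The fold was 1.31 with a 95% interval of 1.07 to 1.6 (adjusted p = 0.130 with edgeR and 0.247 with DESeq2). The log2 fold change of Ccn1 lay between 0.23 and 0.53 as each library was left out.

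Ccn2 (chr10:24595442-24598683), also known as CTGF, had 54.52 and 54.54 CPM in WT and 51.44 and 44.47 CPM in Haspin-KO. Its WT libraries were nearly equal and both Haspin-KO libraries lay below them, with a fold of 0.88 (95% interval 0.756 to 1.02, adjusted p = 0.314). Of its exonic bases, 665 are shared with Gm15270 on the opposite strand, which had 5 and 2 counts in WT and 6 and 1 counts in Haspin-KO.

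Ccn5 (chr2:163820861-163833146), also known as Wisp2, is the CCN protein that lacks the C-terminal cystine-knot domain. It had 46 and 26 counts in WT and 0 and 0 counts in Haspin-KO, that is 2.102 and 1.497 CPM in WT, or 1.8 ± 0.428 CPM (SD, n = 2), and it passed the filter on low counts through its WT libraries alone. With 0 counts a library still allows up to 3 counts, which corresponds to 0.209 and 0.21 CPM in the Haspin-KO libraries and covers counting error only. Set against the mean of these limits, the level of Ccn5 in Haspin-KO was at least 8.6-fold lower than in WT (edgeR adjusted p = 0.00777). The adjusted p was 0.0572 without WT replicate 1, the library with the most Ccn5 counts, and DESeq2 gave Ccn5 no adjusted p.

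Some markers of fibroblasts, the feeder cells named in the methods, were lower in Haspin-KO as Ccn5 was. Of 16 such markers, 11 passed the filter on low counts. Among these 7 were lower in Haspin-KO and 0 were higher (0 higher at an unadjusted p under 0.05 and 0 with DESeq2). Over all genes tested, 1.51% were lower and 0.988% were higher. The summed level of the 16 markers was 145.9 and 116.6 CPM in WT and 39.97 and 42.52 CPM in Haspin-KO. Leaving out WT replicate 1 or WT replicate 2 left 4 lower markers in each case, and of the 6 markers with at least 10 counts in every library 2 were lower. The other 5 lower markers passed the filter on low counts through their WT libraries.

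The 4 fibroblast markers most abundant per length were Col1a1, Mmp2, Pdgfrb and Fbn1. Col1a1, the main chain of type I collagen, had 48.58 and 33.11 CPM in WT and 1.668 and 1.678 CPM in Haspin-KO (log2 fold change -4.61, SE 0.24, adjusted p = 2.12e-05). Pdgfrb, a receptor of mesenchymal cells, had 13.12 and 10.71 CPM in WT and 6.882 and 6.363 CPM in Haspin-KO (log2 fold change -0.85, SE 0.18, adjusted p = 0.0392, which became 0.239 without WT replicate 1 and 0.0783 without WT replicate 2). The matrix protease Mmp2 had 9.369 and 9.214 CPM in WT and 7.508 and 10.91 CPM in Haspin-KO, and the fibrillin gene Fbn1 had 21.48 and 19.35 CPM against 17.38 and 20.7 CPM, so that for these genes the groups overlapped. In Haspin-KO 9 of the 16 markers had at most 3 counts in each library (Col3a1, Col6a3, Lum, Dcn, Postn, Fap, Prrx1, Twist2 and S100a4). Of these, 3 (Lum, Fap and Twist2) had at most 3 counts in each WT library as well, and Lum was at 0 in all 4 libraries. The part of fibroblast RNA in the difference in Ccn5 was not tested. In bulk RNA, fewer cells of a type and less RNA per cell cannot be told apart.

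The remaining targets encode intracellular proteins. Ankrd1 (chr19:36111961-36120099), an ankyrin repeat protein known best from heart and muscle, had 26 and 30 counts in WT and 14 and 13 counts in Haspin-KO. This corresponds to 1.188 and 1.728 CPM in WT and 0.973 and 0.909 CPM in Haspin-KO, with both Haspin-KO libraries below both WT libraries. At this depth the fold of 0.654 had a wide 95% interval of 0.357 to 1.2 (adjusted p = 0.400).

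Amotl2 (chr9:102716672-102733418), an angiomotin that binds YAP and holds it outside the nucleus, had 179.7 and 210.3 CPM in WT and 226.8 and 245.3 CPM in Haspin-KO. Both Haspin-KO libraries exceeded both WT libraries, by less than the gap between the WT libraries for the closest pair. The fold was 1.21 (95% interval 1.05 to 1.39, adjusted p = 0.128 with edgeR and 0.152 with DESeq2). The log2 fold change of Amotl2 lay between 0.16 and 0.39 as each library was left out. Lats2 (chr14:57689662-57758388), the LATS kinase that is itself a YAP target, had 7.084 and 10.83 CPM in WT and 11.54 and 12.94 CPM in Haspin-KO. The WT libraries of Lats2 differed from each other by more than the nearest libraries of the groups did, with a fold of 1.38 and a 95% interval of 0.995 to 1.9 (adjusted p = 0.247). Lats2 shares 2955 exonic bases with Gm49361 on the same strand, which had 0 counts in every library.

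Summed, the 6 targets had 267.8 and 301.1 CPM in WT and 323.7 and 330.3 CPM in Haspin-KO, most of it from Amotl2. Their median log2 fold change was 0.05, with 3 targets below zero and 3 above.

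Levels can be compared between genes only per length, so deposited FPKM values were used for the order of the genes. In WT, Amotl2 had the highest level, at 30.95 ± 3.28 FPKM (SD, n = 2). It was followed by Wwtr1 (19.48 ± 0.615), Ccn2 (19.04 ± 0.0919), Yap1 (18.8 ± 0.643), Tead1 (17.81 ± 0.771) and Tead4 (17.36 ± 1.56), all in FPKM, and in this run each gene overlapped its neighbour in the order. Ccn1 stood lower at 11.22 ± 0.417 FPKM. The lowest were Lats2 at 1.285 ± 0.375 FPKM, Ccn5 at 0.93 ± 0.226 FPKM and Ankrd1 at 0.505 ± 0.134 FPKM, of which Lats2 and Ccn5 overlapped and Ccn5 and Ankrd1 did not. In Haspin-KO, Amotl2 (37.58 ± 1.51 FPKM) again came first, apart from the others. Tead1 (21.18 ± 0.785 FPKM), Yap1 (20.08 ± 1.27 FPKM) and Wwtr1 (19.3 ± 1.11 FPKM) followed, and in this run each gene overlapped its neighbour. Tead4 (17.22 ± 0.721 FPKM), Ccn2 (16.8 ± 1.98 FPKM) and Ccn1 (14.8 ± 2.44 FPKM) formed the next overlapping run. Lats2 was at 1.76 ± 0.113 FPKM, and the lowest expressed gene was Ankrd1 at 0.325 ± 0.0212 FPKM, since Ccn5 was listed at 0. The coactivators, both TEAD factors and the targets Amotl2, Ccn2 and Ccn1 thus all stood above 10 FPKM in each library, while Lats2, Ccn5 and Ankrd1 stayed below 2 FPKM.

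Upstream of YAP and TAZ, 21 of 23 listed Hippo kinases and regulators passed the filter on low counts. Of these 1 was higher in Haspin-KO and 0 were lower (0 lower with DESeq2). At an unadjusted p under 0.05 in edgeR, 4 were higher and 1 was lower, beside 1615 higher and 1627 lower of all 15580 genes tested. Over all genes tested, 0.988% were higher and 1.51% were lower. The median log2 fold change of the listed genes tested was 0.03. The higher gene was Ptpn14, which encodes a phosphatase that binds YAP and restrains it and is itself counted among YAP targets. Ptpn14 had 72.21 and 72.68 CPM in WT and 127.8 and 111.5 CPM in Haspin-KO, so that the groups were well apart, with a log2 fold change of 0.72 (SE 0.09, adjusted p = 0.00465). The other 20 genes, including the core kinases Stk3, Stk4 and Lats1 and the adaptor Sav1, had log2 fold changes between -0.34 and 0.41. DESeq2 called 2 of these regulators higher, beside 191 higher genes over all genes. More regulators were higher when WT replicate 2 or either Haspin-KO replicate was left out. Over all genes, higher calls rose without either Haspin-KO replicate and fell without WT replicate 2.

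None of the other TEAD and VGLL genes passed the test (0 of 4 tested, of 6 listed; 1 lower and 0 higher at an unadjusted p under 0.05, 0 with DESeq2), with a median log2 fold change of -0.12. Tead2, the most abundant per length in this list, had 78.33 and 69.4 CPM in WT and 67.01 and 59.72 CPM in Haspin-KO. All Haspin-KO values of Tead2 were below those of WT, with a fold of 0.857 (95% interval 0.736 to 0.998, adjusted p = 0.235). Vgll4, a cofactor that competes with YAP for TEADs, had 37.43 and 32.71 CPM in WT and 33.09 and 33.98 CPM in Haspin-KO, with overlapping groups.

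Of the other CCN genes, 3 of 3 passed the filter and, against 1.51% of all genes tested, 1 was lower in Haspin-KO. This was Ccn4, also known as Wisp1, a gene first described as induced by Wnt1. Ccn4 had 84 and 58 counts in WT and 20 and 16 counts in Haspin-KO, or 3.839 and 3.34 CPM against 1.39 and 1.119 CPM, with a log2 fold change of -1.51 (SE 0.30, adjusted p = 0.0332). The call was lost without WT replicate 1 (adjusted p = 0.21) or WT replicate 2 (adjusted p = 0.113) and with DESeq2 (adjusted p = 0.0701).

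A panel of 17 further YAP/TAZ targets known from cancer cells had 15 genes that passed the filter. Of these 3 were lower (Ccdc80, F3 and Axl) and 1 was higher (Ptpn14), against 1.51% lower and 0.988% higher over all genes tested. The median log2 fold change of the panel was 0.003. Ccdc80, which encodes a secreted protein of the matrix, had 18.69 and 12.67 CPM in WT and 0.487 and 0.420 CPM in Haspin-KO (log2 fold change -5.10, SE 0.33, adjusted p = 9.46e-05). With 7 and 6 counts in Haspin-KO, Ccdc80 passed the filter on low counts through its WT libraries alone. F3, which encodes tissue factor, the starter of blood clotting, had 11.93 and 9.33 CPM in WT and 5.005 and 4.126 CPM in Haspin-KO (log2 fold change -1.22, SE 0.21, adjusted p = 0.0196). Axl, a receptor tyrosine kinase for Gas6, had 7.998 and 4.204 CPM in WT and 2.225 and 1.399 CPM in Haspin-KO (log2 fold change -1.76, SE 0.37, adjusted p = 0.0399).

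For each of Ccdc80, F3 and Axl both Haspin-KO libraries lay below both WT libraries, a pattern shown by 26.9% of all genes tested. WT replicate 1 was above WT replicate 2 for each of them. Without WT replicate 1 the calls of F3 (adjusted p = 0.119) and Axl (adjusted p = 0.248) were lost, and those of Ccdc80 and Ptpn14 were not. The part of fibroblast RNA in these differences, and in that of Ccn4, was not tested. The 11 genes of the panel that did not pass the test had log2 fold changes between -0.29 and 0.48.

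**Figure D3:**
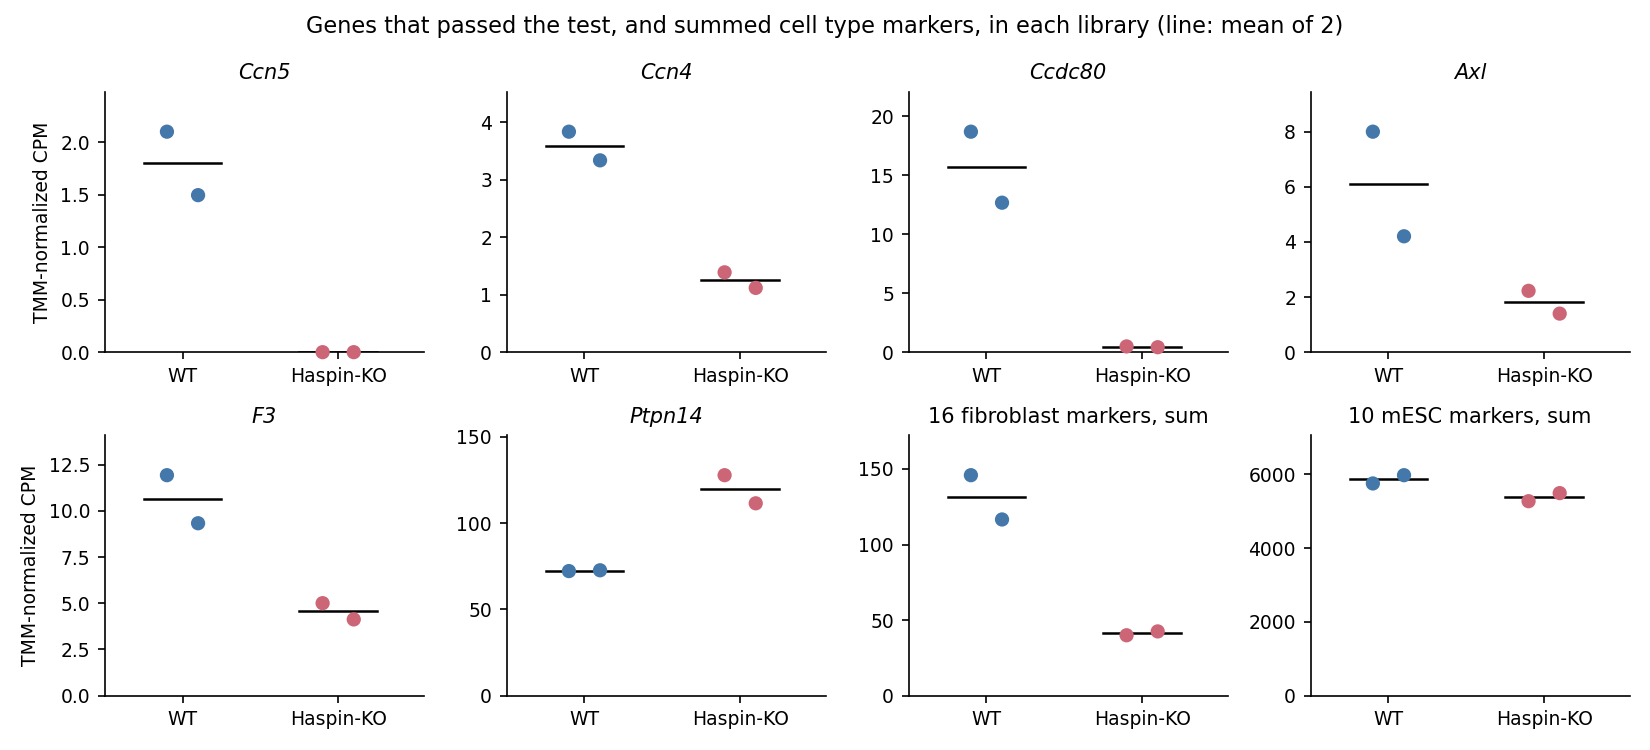
TMM-normalized CPM (linear axis from 0, a separate scale in each panel) in each of the 2 WT libraries (blue) and 2 Haspin-KO libraries (red), with lines at the group means, for Ccn5, Ccn4, Ccdc80, Axl, F3 and Ptpn14 and for the sums of 16 fibroblast markers and 10 mESC markers. Ptpn14 alone of the 6 genes was higher in Haspin-KO, and the fibroblast sum went from 145.9 and 116.6 in WT to 39.97 and 42.52 in Haspin-KO.

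**Figure D4:**
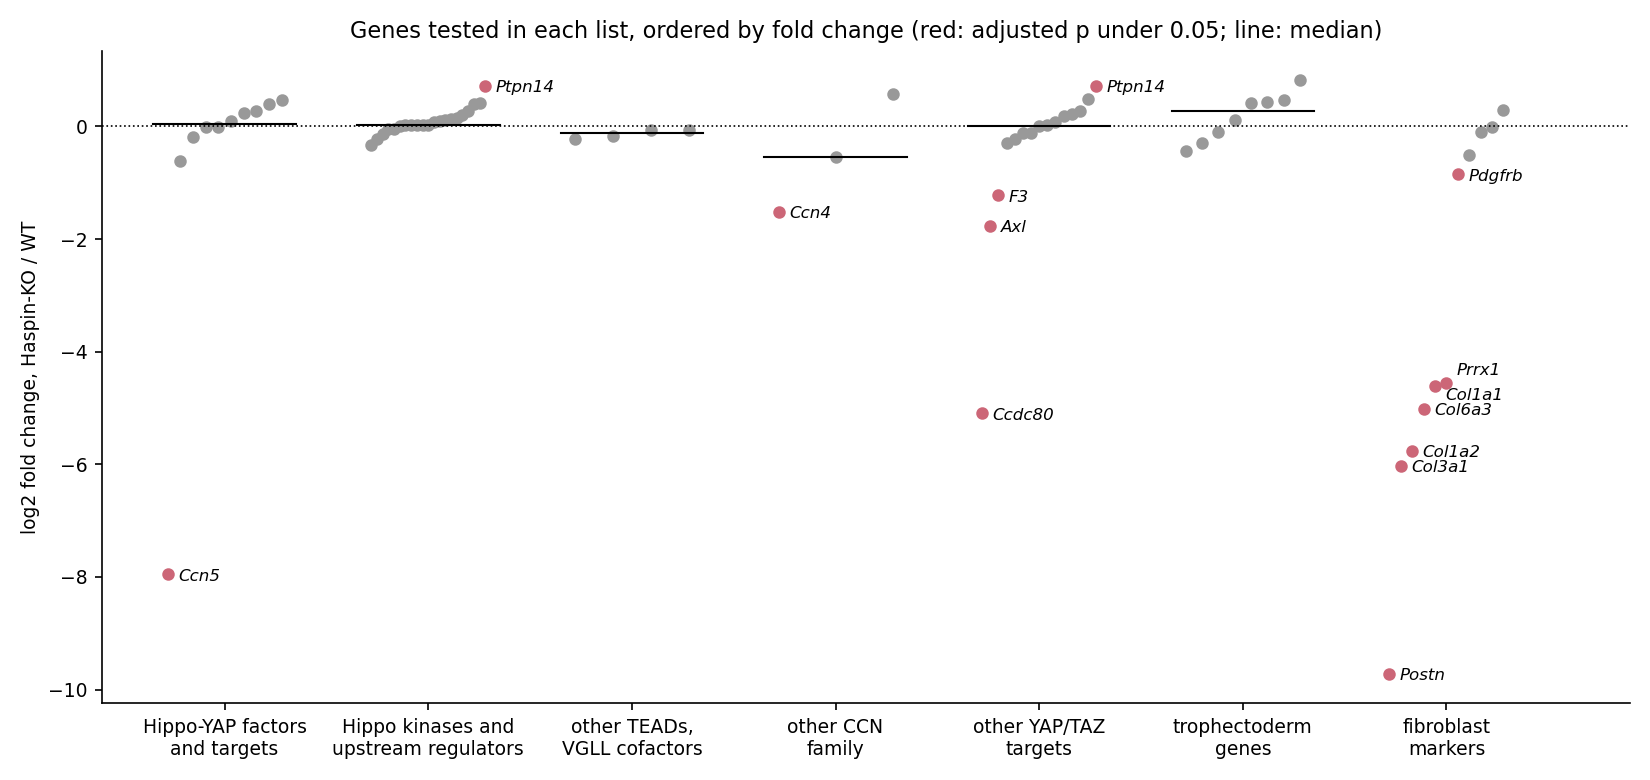
Fitted log2 fold change of Haspin-KO over WT for every gene that passed the filter on low counts in each list, ordered by value within a list, where red points with names have an adjusted p under 0.05 and black lines mark the list medians (none is drawn for the fibroblast markers). The medians of the Hippo-YAP genes (0.04) and of the Hippo kinases and regulators (0.03) lie near zero. Fitted values of genes at or under 3 counts in both Haspin-KO libraries, such as Ccn5 and Postn, depend on the prior count and are no bounds.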

How the data were processed

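Bulk RNA-seq covered 2 libraries of WT and 2 of Haspin-KO E14 mESCs, grouped and numbered by the sample labels. The authors trimmed the reads and mapped them to mm10. Submitters' processing notes name cutadapt 1.9.1, HISAT2 2.0.1, HTSeq 0.6.1 and DESeq2, with strand setting, treatment of multiply mapped reads and annotation release not given in the sources used here. The authors deposited raw counts per gene without normalization, FPKM values (in 100% of values equal to counts over exonic length and library total), and the exonic lengths themselves. Reads in exonic bases shared by overlapping genes, here of Yap1, Ccn2 and Lats2, may have been left out. FPKM values divide by the full exonic length, so any such loss would lower them for these genes.

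Counts were tested with edgeR (4.0.16, R 4.3.3; low-count filter, TMM, quasi-likelihood test), with Benjamini-Hochberg adjustment over 15580 of 55401 genes (26731 had no count). Genes with an adjusted p under 0.05 passed the test. CPM values are TMM-normalized and intervals are 95% intervals of the fit. The floor was 3 counts per library. With 2 libraries a group an exact permutation test could not reach the threshold and was not used. Alternatives were DESeq2 (1.42.0), limma (3.58.1) on log2(FPKM + 0.1) or log2(FPKM + 1) for genes reaching an FPKM of 0.5 in 2 or more libraries, other scalings, other filters (none, or at least 10 counts in every library), thinning to the smallest total, a fold change over 2 as well, a replicate block, and leaving out each library.

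The 10 genes and all lists (Hippo kinases and regulators, other TEAD and VGLL genes, other CCN genes, YAP/TAZ target panel, trophectoderm genes, mESC and fibroblast markers) were chosen with earlier results of these data known. Named were Haspin, the 10 genes, from each list the genes that passed the test (up to 4 per direction) or else its 2 most abundant by FPKM, and the 4 most abundant markers of each cell type. Other names were chosen after their values were seen. Promoter windows are those of RefSeq. Coordinates of genes are those of the deposited table (mm10), and overlaps were taken from GENCODE M21, whose coordinates were the same for 99.35% of 55141 shared genes. The result for 1 gene of the KEGG Hippo signaling pathway is not reported here.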

Additional observations from a re-analysis of the deposited data

How the results depend on the processing

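Lower and higher genes numbered 236 and 154 over all genes, 724 and 448 without the filter, 78 and 51 with a fold change over 2 as well, 0 and 0 with limma at either pseudocount (against 1627 and 1615 at an unadjusted p under 0.05 in edgeR), and 61 to 432 and 33 to 446 when each library was left out. Of the 10 Hippo-YAP genes, the lower one (Ccn5) was lost with limma (0 at either pseudocount, adjusted p = 0.12 and 0.115), with DESeq2 (0, no adjusted p given) and with at least 10 counts in every library (0, since Ccn5 was not tested), and leaving out each library gave 0 to 1 lower genes and 0 to 1 higher genes. In the panel of YAP/TAZ targets, limma gave 0 lower and 0 higher genes, and leaving out each library gave 1 to 3 lower genes, the 1 without WT replicate 1. Axl had an adjusted p of 0.0519 with library totals. With at least 10 counts in every library the panel had 2 lower genes, since Ccdc80 was not tested there, against 195 lower genes over all genes. The log2 fold change of Wwtr1 (-0.0593 to 0.0215 as each library was left out) turned from -0.02 to 0.0215 without WT replicate 2 and 0.021 without Haspin-KO replicate 2, and that of Tead4 (-0.1136 to 0.0858) from -0.01 to 0.0858 without WT replicate 2 and 0.0456 without Haspin-KO replicate 1. Where a library was left out of a group, the lone library was assumed to vary like the other group. Replicate numbers are shared by the groups, but no source says that they mark a shared culture or day, and with 2 pairs they were not taken as pairing; the differences of replicate 1 minus 2 in the groups correlated at r = 0.339 across genes. With the replicate block (1 residual degree of freedom against 2), 1739 lower and 1775 higher genes were called over all 15580 genes tested. The prior degrees of freedom, the weight of the variance shared by all genes, went from 7.42 to infinite. No gene thus kept a variance of its own in that fit. In it 4 of the 10 Hippo-YAP genes were higher (Tead1 with adjusted p = 0.000742, Ccn1 with 0.0014, Amotl2 with 0.00012 and Lats2 with 0.00996), and 3 genes of the panel were higher. Scaling by DESeq2's size factors or library totals moved the median of all genes from -0.0039 to 0.0024 and 2e-04. The cause of these changes was not tested.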

Other observations

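Trophectoderm genes, the programme that YAP and TEAD4 drive in the embryo, were measured in mESCs as well. Of 10 listed, 8 passed the filter on low counts and 0 passed the test (0 lower and 0 higher at an unadjusted p under 0.05, and 0 with DESeq2). Their log2 fold changes lay between -0.44 (Cdx2) and 0.82 (Krt19), with a median of 0.27. The keratin gene Krt8 had 86.37 and 67.55 CPM in WT and 78.41 and 46.5 CPM in Haspin-KO, and its partner Krt18 had 26 and 10.77 CPM in WT and 35.24 and 15.24 CPM in Haspin-KO. Replicate 1 was above replicate 2 in both groups for Krt8 and Krt18, and also for the transcription factor Tfap2c (36.47 and 22.4 CPM in WT, 40.6 and 23.22 CPM in Haspin-KO). Eomes, a T-box factor of the trophoblast and the primitive streak, went the other way, with 27.56 and 50.05 CPM in WT and 25.86 and 45.8 CPM in Haspin-KO. Tfap2c, Eomes, Cdx2 and Krt19 were chosen after their values were seen. Over all genes tested, 1.51% were lower and 0.988% were higher. Leaving out either Haspin-KO replicate gave calls among the trophectoderm genes, and it also raised the number of calls over all genes in each direction.

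The deposited table assigns 312 genes to the KEGG Hippo signaling pathway, of which 147 passed the filter on low counts. Of these 4 were lower in Haspin-KO and 1 was higher, against 1.51% lower and 0.988% higher over all genes tested. The median log2 fold change of the 147 genes was 0.02. Of the genes that passed the test, those described here were named after their values were seen. Wnt5a, a Wnt ligand, had 38 and 26 counts in WT and 1 and 1 counts in Haspin-KO (edgeR adjusted p = 0.00789). With Haspin-KO set at the floor of 3 counts per library, its level was 7.73-fold lower than in WT. Tgfb3, a TGF-beta ligand, had 22 and 13 counts in WT and 1 and 0 counts in Haspin-KO (edgeR adjusted p = 0.0329). Set at the same floor, its level was 4.19-fold lower. The floor stands for what a library with 0 counts still allows, so neither fold is a bound for libraries with 1 count. The cyclin gene Ccnd2 had 8.5 and 5.817 CPM in WT and 3.267 and 2.867 CPM in Haspin-KO (log2 fold change -1.23, SE 0.25, adjusted p = 0.0388). Id1, a target of BMP signalling, was the higher gene, with 12.52 and 12.55 CPM in WT and 20.3 and 18.25 CPM in Haspin-KO (log2 fold change 0.62, SE 0.13, adjusted p = 0.0434). These calls were lost without WT replicate 1 for Wnt5a (adjusted p = 0.0791), Ccnd2 (0.253), Id1 (0.2) and Tgfb3 (not tested there), and without WT replicate 2 for Wnt5a (0.0551), Tgfb3 (0.118), Ccnd2 (0.0551) and Id1 (0.145). Leaving out Haspin-KO replicate 2 lost Tgfb3 (0.0618), leaving out Haspin-KO replicate 1 lost Id1 (0.0629), and Id1 was also lost with DESeq2 (0.0641) and with library totals (0.0517). Wnt5a and Tgfb3 were not called with DESeq2, limma or at least 10 counts in every library, none of which gave them an adjusted p, and limma did not call Ccnd2 or Id1. The part of fibroblast RNA in the lower genes was not tested.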
